A study of Mus musculus with 14 samples.

Results

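Cells sorted from the subependymal zone of adult mice for the surface protein prominin were compared with cells sorted from the same zone for CD24. The comparison set the 2 arrays of prominin-sorted cells (SEZ_Prom) against the 2 arrays of CD24-sorted cells (SEZ_CD24), 4 of the 14 arrays of the series, over all 18193 genes that had a probe set with a single gene symbol. Each gene was represented by its brightest probe set. Every value below is an intensity, the linear signal of a probe set on an array, or the difference SEZ_Prom minus SEZ_CD24 of mean log2 intensities, given with the standard error of the fit. The spread came from a limma fit of all 5 groups, and a gene passed the threshold at a Benjamini-Hochberg adjusted p under 0.05 over the 18193 genes.

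All groups came from hGFAP eGFP mice, which carry a green fluorescent protein driven by the human GFAP promoter, at an age of 8 weeks. The labels call SEZ_Prom neural stem cells and SEZ_CD24 ependymal cells, and neither sort selected for green fluorescence. The other 10 arrays held SEZ_GFP (subependymal zone, sorted for GFP, n = 2) and SEZ_GFPprom (the same zone, sorted for GFP and prominin together, n = 4), both labelled neural stem, and DIEC_GFP (diencephalon, sorted for GFP, labelled astrocytes, n = 4). The labels name the samples biological replicates without saying how many animals each holds, so p-values measure the spread between arrays, which may be partly technical. With 2 arrays on each side of the comparison, the number of arrays limits the precision.

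The subependymal zone lines the lateral ventricle and is the main site of neurogenesis in the adult mouse forebrain. Its stem cells are astrocyte-like, give rise to fast-dividing intermediate cells, and these give rise to neuroblasts that migrate to the olfactory bulb. A layer of ciliated ependymal cells separates it from the ventricle, the choroid plexus lies in the ventricle, and the striatum, with its projection neurons and myelinated fibre bundles, borders it. Prominin is a membrane protein of cellular protrusions such as cilia and microvilli and is found on ependymal and some stem cells. CD24 is a glycoprotein anchored in the membrane by a lipid, and is found on ependymal cells and on neuroblasts, and also on blood cells.

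The genes of the sorting proteins were read first. Cd24a had intensities of 609 and 264 in SEZ_Prom and of 2160 and 3740 in SEZ_CD24. The arrays did not overlap, and Cd24a was 7.09-fold lower in SEZ_Prom (difference -2.83 ± 0.46, SE, limma adjusted p = 0.00826). All 3 of its probe sets passed in that direction. Without SEZ_CD24 replicate 2 the difference was -2.43 (adjusted p = 0.0657), and without SEZ_Prom replicate 2 it was -2.22 (adjusted p = 0.0656). Prom1 stood at 194 and 345 in SEZ_Prom and at 85 and 380 in SEZ_CD24. These values overlapped, and the difference of 0.53 ± 0.54 did not pass (adjusted p = 0.652). It was -0.55 without SEZ_CD24 replicate 1. In SEZ_GFPprom, the other sort that used prominin, Prom1 lay between 426 and 664. Gfap, the intermediate filament of astrocytes, read 143 and 279 against 36 and 34, without overlap but just short of the threshold (difference 2.51 ± 0.67, adjusted p = 0.0501). Its other 2 probe sets read at most 42.

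The SEZ_Prom arrays resembled each other more than the SEZ_CD24 arrays did. Across genes, which are not independent replicates, Pearson's r of log2 intensities was 0.969 within SEZ_Prom, 0.952 within SEZ_CD24 and 0.899 to 0.927 between them. Values more than 4-fold apart within a group were found for 144 genes in SEZ_Prom and for 352 in SEZ_CD24. A ratio that can follow RNA quality was lower in both SEZ_Prom arrays than in either SEZ_CD24 array. The log2 ratio of 3' to 5' signal of the control transcripts was 4.67 and 4.58 in SEZ_Prom and 4.94 and 5.35 in SEZ_CD24, and its part in the results below was not tested beyond the fit that holds the ratio as a covariate.

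Among the genes tested, 1006 passed (5.53%). Of these, 624 were higher in SEZ_Prom (3.43% of all genes) and 382 were higher in SEZ_CD24 (2.10%). The median difference over all genes was 0.07. At least 4-fold differences were found for 293 of the genes higher in SEZ_Prom and for 130 of those higher in SEZ_CD24, and at least 16-fold differences for 21 and 6. The higher share, 62.0% of the calls, depended on the scaling: with the medians of all arrays made equal, 448 genes passed as higher in SEZ_Prom and 530 as higher in SEZ_CD24. The number of calls rested on single arrays. It was 213 without SEZ_Prom replicate 1, 161 without SEZ_Prom replicate 2 and 202 without SEZ_CD24 replicate 2, but 950 without SEZ_CD24 replicate 1. It was 136 with the 3' to 5' ratio as a covariate. A limma fit of these 4 arrays alone passed 0 genes, with 3492 at an unadjusted p under 0.05. Of the 624 genes higher in SEZ_Prom, 467 were brighter in SEZ_CD24 replicate 1 than in SEZ_CD24 replicate 2 and 140 were dimmer.

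**Figure D1:**
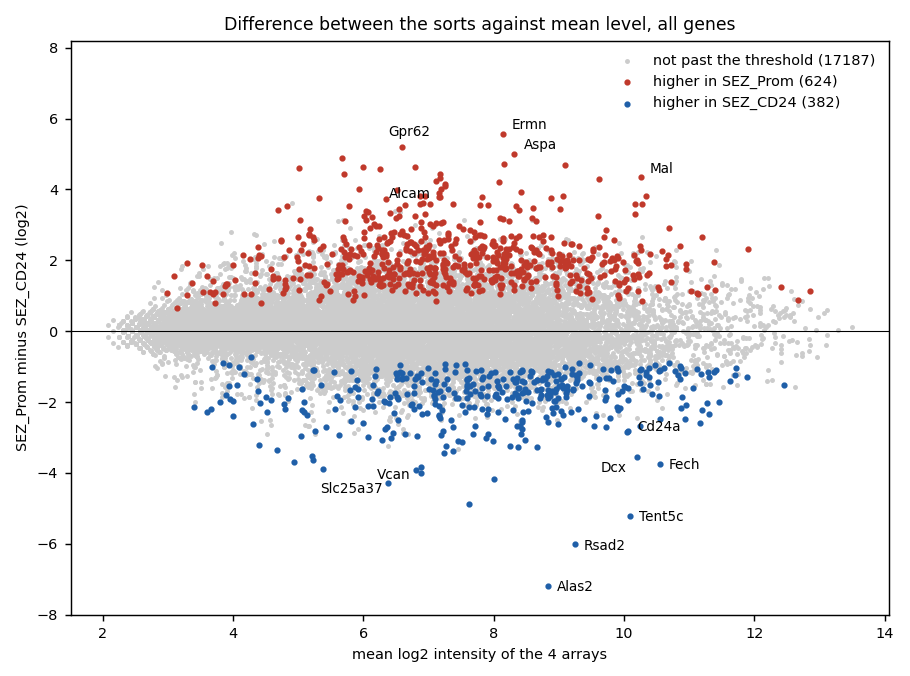
Difference SEZ_Prom minus SEZ_CD24 (log2, vertical) against the mean log2 intensity of the 4 arrays (horizontal) for all 18193 genes; coloured points passed the threshold. The 624 genes higher in SEZ_Prom reach 5.57 (Ermn), and the 382 higher in SEZ_CD24 reach -7.18 (Alas2).

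Different kinds of gene made up the ends of the ranking. The 15 highest differences, in order Ermn, Gpr62, Aspa, Opalin, Hhip, Septin4, Abca8a, Ano4, Mog, Ppp1r14a, Tmem125, Mal, Efhd1, Ugt8a and Serpinb1a, hold 6 of the oligodendrocyte markers listed for the comparison. The 15 lowest were Alas2, Rsad2, Tent5c, Isg20, Slc25a37, Elavl2, Dusp4, Vcan, Sp8, Fech, Dcx, Slc4a1, S100a9, Cacng5 and Zfp711. They hold 4 genes of haem synthesis, its iron supply or the red cell membrane (Alas2, Fech, Slc25a37 and Slc4a1) and several genes of young neurons. Among these 30 genes, 12 passed without each of the 4 arrays in turn: Ermn, Gpr62, Septin4, Abca8a, Efhd1, Ugt8a, Serpinb1a, Alas2, Rsad2, Slc25a37, Vcan and Fech.

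The promoters of 4 genes are shown because their genes stand for the oligodendrocyte, neuroblast, haem and antiviral genes described below. Each is the 250 bases before the gene's start, 5' to 3' on the gene's strand, from the RefSeq promoter table (GRCm38.p6), with one match in capitals. In Ermn the capitals mark ACAATGG, a SOX factor motif, at -234. In the printed one of 2 Dcx promoters they mark TAATTA, the core of homeodomain motifs, at -39. In Alas2 they mark the motif bound by factors of the GATA family, AGATAA, on the opposite strand at -86. In Rsad2 they mark GAAANNGAAA, part of an interferon response element, on the opposite strand at -120.
Ermn, chr2:58052865-58053114, strand minus: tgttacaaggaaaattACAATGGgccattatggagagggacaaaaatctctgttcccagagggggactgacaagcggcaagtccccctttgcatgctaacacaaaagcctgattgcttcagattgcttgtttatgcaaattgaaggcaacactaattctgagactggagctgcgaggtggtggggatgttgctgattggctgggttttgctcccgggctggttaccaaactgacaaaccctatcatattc
Dcx, chrX:143933220-143933469, strand minus: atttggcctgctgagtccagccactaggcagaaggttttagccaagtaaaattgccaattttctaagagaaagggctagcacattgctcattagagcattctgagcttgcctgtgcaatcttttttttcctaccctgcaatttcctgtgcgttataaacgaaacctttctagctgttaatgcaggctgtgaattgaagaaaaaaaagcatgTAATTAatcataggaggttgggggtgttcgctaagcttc
Alas2, chrX:150547167-150547416, strand plus: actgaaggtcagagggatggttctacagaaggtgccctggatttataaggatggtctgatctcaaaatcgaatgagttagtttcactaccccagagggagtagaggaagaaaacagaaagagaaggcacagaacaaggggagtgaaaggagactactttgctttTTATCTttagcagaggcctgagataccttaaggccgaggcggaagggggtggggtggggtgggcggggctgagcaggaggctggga
Rsad2, chr12:26456453-26456702, strand minus: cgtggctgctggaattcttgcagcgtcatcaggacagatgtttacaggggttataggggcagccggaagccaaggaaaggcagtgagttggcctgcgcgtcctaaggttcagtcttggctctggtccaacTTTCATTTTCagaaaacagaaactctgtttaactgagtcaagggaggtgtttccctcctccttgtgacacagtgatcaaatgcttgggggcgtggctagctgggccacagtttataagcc

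Both strands were searched, and the motifs and the 4 genes were chosen after their values were seen, so a match is a description of the letters only. Of all 32851 promoters in the table, 3.02% held ACAATGG, 4.84% TAATTA, 9.99% AGATAA and 2.98% GAAANNGAAA in the same window. Of the 15 highest genes, 14 had a promoter in the table, and 1 of these held ACAATGG (Ermn), 1 TAATTA (Abca8a) and 0 AGATAA or GAAANNGAAA. Of the 15 lowest genes, 10 had one, and AGATAA was found in 3 of these (Alas2, Isg20 and S100a9), TAATTA in 2 (Dcx and Sp8) and GAAANNGAAA in 1 (Rsad2).

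Oligodendrocyte genes were the most uniformly higher group in the prominin sort. Of 13 measured markers, 11 were higher in SEZ_Prom and the median difference was 3.92, against 3.43% and 0.07 over all genes. In sorted bulk RNA, more cells of a type and more RNA per cell cannot be told apart. Ermn, whose product ermin shapes the cytoskeleton of myelinating processes, read 2020 and 1869 in SEZ_Prom and 51 and 33 in SEZ_CD24. It was 47.4-fold higher (difference 5.57 ± 0.67, adjusted p = 0.00239), its second probe set was 26.8-fold higher, and its difference was 4.32 with the 3' to 5' covariate (adjusted p = 0.0239). Ugt8a, the enzyme that makes the myelin lipid galactosylceramide, read 3371 and 3563 against 387 and 81 (19.6-fold, adjusted p = 0.0058). Aspa, which frees acetate for lipid synthesis from N-acetylaspartate, read 1782 and 1827 against 133 and 24 (31.9-fold, adjusted p = 0.0123). The arrays of the sorts did not overlap for any of these 3 genes, and SEZ_CD24 replicate 2 was the lowest of the 4 arrays each time.

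Proteins of compact myelin and of its inner and outer faces followed. Mbp, a major structural protein of compact myelin, was bright in both sorts, at 11327 and 10834 against 5701 and 4387, and differed by only 2.22-fold (adjusted p = 0.0137). Mog, on the outermost myelin surface, read 719 and 632 against 98 and 10 (21.5-fold, adjusted p = 0.029). Its difference was 2.78 without SEZ_CD24 replicate 2 (adjusted p = 0.194). Mag, the adhesion protein facing the axon, read 1048 and 1693 against 181 and 43 (15.1-fold, adjusted p = 0.0119). Mal, a proteolipid of myelin membrane sorting, stood at 5777 and 5266 against 1075 and 68 (20.4-fold, adjusted p = 0.0291), so the SEZ_CD24 arrays differed from each other about as strongly as the group means did. Cnp, Cldn11, Fa2h and Opalin also passed, with 4.97, 11.7, 8.59 and 26.3-fold differences. Mobp and Myrf did not pass (differences 2.29 and 1.92). The mean log2 level of the list averaged 11.05 in SEZ_Prom, and was 8.42 and 6.52 in SEZ_CD24, and 10.68 to 11.7 in DIEC_GFP. Of the 13 markers, 3 passed without SEZ_Prom replicate 1, 2 without SEZ_Prom replicate 2, 11 without SEZ_CD24 replicate 1, 2 without SEZ_CD24 replicate 2 and 1 with the 3' to 5' covariate.

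Genes of oligodendrocyte progenitors were higher too, by less. All 12 differences were above 0, 6 passed, and the median was 1.90. Olig1, a transcription factor of the lineage, read 4113 and 5065 in SEZ_Prom against 1225 and 297 in SEZ_CD24 (7.57-fold, adjusted p = 0.0192). Its partner Olig2 read 220 and 300 against 55 and 43 (5.28-fold, adjusted p = 0.0207). Bcas1 and Enpp6, both of newly formed oligodendrocytes, were 3.70-fold and 4.35-fold higher, and the matrix protein Matn4 and the proteoglycan Cspg4 3.74-fold and 2.76-fold. Pdgfra, the receptor that defines progenitors, did not pass (difference 1.43, adjusted p = 0.229), and neither did Sox10 (2.60, adjusted p = 0.0601). With equal medians 4 of the 12 passed. None of the 12 passed without SEZ_Prom replicate 1, SEZ_Prom replicate 2 or SEZ_CD24 replicate 2, or with the 3' to 5' covariate, and 7 passed without SEZ_CD24 replicate 1.

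Several other genes at the top of the ranking were measured beside these markers. Gpr62, an orphan receptor of oligodendrocytes, read 397 and 864 against 15 and 17 (36.7-fold, adjusted p = 0.00402). Septin4, a filament-forming GTPase, read 2604 and 2990 against 172 and 67 (26.0-fold, adjusted p = 0.00189). Erbb3, a neuregulin receptor, read 256 and 371 against 47 and 17 (10.9-fold, adjusted p = 0.0174). Hhip, which binds Hedgehog ligands outside the cell, stood at 277 and 274 against 8 and 11 (29.4-fold, adjusted p = 0.0127), where the SEZ_CD24 values are at the dim end of the array. With values under 10 set to 10 the fold was 26.3. Abca8a, a lipid transporter, read 364 and 839 against 29 and 17 (24.9-fold, adjusted p = 0.00148), and both SEZ_Prom values lay above the highest of the other 10 arrays, 302.

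Astrocyte genes leaned the same way. All 39 measured markers had differences above 0, with a median of 1.49, and 9 passed (23.1%, against 3.43% of all genes higher in SEZ_Prom). Gjb6, a connexin of astrocyte gap junctions, read 308 and 268 in SEZ_Prom against 77 and 41 in SEZ_CD24 (5.11-fold, adjusted p = 0.0195). S100b, a calcium-binding protein of astrocytes and also of oligodendrocytes, read 1324 and 1049 against 344 and 102 (6.29-fold, adjusted p = 0.028). Aldh1l1, an enzyme of folate metabolism used as an astrocyte marker, read 511 and 358 against 154 and 57 (4.57-fold, adjusted p = 0.0385). Cldn10, Grin2c, Htra1 and F3 were 4.01, 3.28, 4.11 and 5.55-fold higher. The list's mean log2 level was 9.27 and 8.96 in SEZ_Prom, 8.17 and 7.03 in SEZ_CD24 and 8.56 to 8.94 in SEZ_GFP, so the SEZ_CD24 arrays were the low ones. None of the 39 passed without SEZ_Prom replicate 1, SEZ_Prom replicate 2 or SEZ_CD24 replicate 2, or with the covariate, while 20 passed without SEZ_CD24 replicate 1.

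Genes of striatal projection neurons were higher in the prominin sort as well. Of 20 measured, 6 passed (30.0%, against 3.43% of all genes higher in SEZ_Prom), 18 had differences above 0, and the median was 1.63. Ppp1r1b, the dopamine-regulated phosphatase inhibitor DARPP-32, read 921 and 565 in SEZ_Prom against 191 and 100 in SEZ_CD24 (5.22-fold, adjusted p = 0.0174), and lay between 44 and 281 on the other 10 arrays. Ptpn5, a striatum-enriched tyrosine phosphatase, read 345 and 234 against 80 and 51 (4.45-fold, adjusted p = 0.0174). Drd1, a dopamine receptor, read 136 and 119 against 71 and 27 (2.91-fold, adjusted p = 0.0466), a call made in 6 of 28 alternative settings. Tac1, a neuropeptide precursor, and Pde10a, a striatal phosphodiesterase, were 5.81-fold and 2.66-fold higher. General markers of mature neurons had a median of 1.16 with 0 of 18 past the threshold (Thy1, 3.74-fold, adjusted p = 0.0501). Without DIEC_GFP replicate 4, 6 of the 18 passed as higher in SEZ_Prom and 1 as higher in SEZ_CD24, and in the fit of the 4 SEZ groups 4 and 1 did. Of the 20 striatal genes, 3 passed with equal medians, 10 without SEZ_CD24 replicate 1, and 0 without any other of the 4 arrays or with the covariate.

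**Figure D2:**
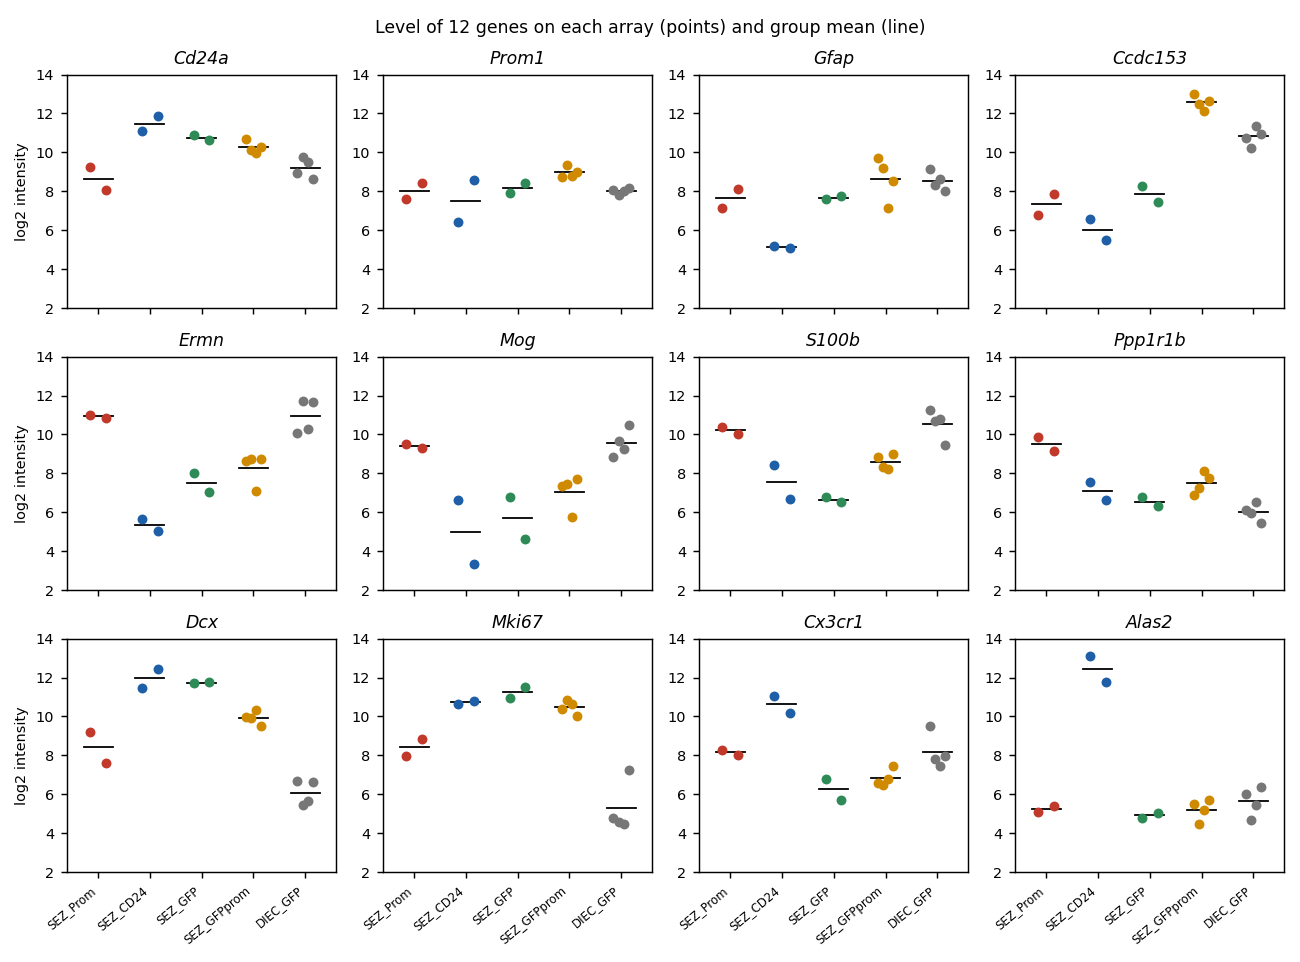
Log2 intensity of 12 genes on each of the 14 arrays (points) with the mean of each group (line). Ermn, Mog, S100b and Ppp1r1b are high in SEZ_Prom, Dcx, Cd24a, Cx3cr1 and Alas2 in SEZ_CD24, and Ccdc153, an ependymal gene, is low in both.

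The ependymal label of the CD24 sort was checked against ependymal genes. None of the 19 measured ependymal markers passed in either direction, and 16 had differences above 0, that is, toward SEZ_Prom. Ccdc153, a marker of ciliated ependymal cells, read 110 and 235 in SEZ_Prom and 94 and 45 in SEZ_CD24, but 4501 to 8308 in SEZ_GFPprom and 1218 to 2596 in DIEC_GFP. Foxj1, the master regulator of motile cilia, read 69 and 52 against 66 and 48, and 575 to 1086 in SEZ_GFPprom. Tekt1, a tektin of the ciliary axoneme, read 38 and 75 against 17 and 21 (adjusted p = 0.081). The mean log2 level of the list was 5.65 and 6.17 in SEZ_Prom, 5.69 and 4.98 in SEZ_CD24, 5.61 to 6.38 in SEZ_GFP and 9.44 to 10.3 in SEZ_GFPprom. By these genes SEZ_CD24, labelled ependymal, stood no higher than SEZ_Prom, and the highest levels were in SEZ_GFPprom, which is labelled neural stem. Prom1 was highest in SEZ_GFPprom, and Cd24a in its brightest probe set was highest in SEZ_CD24. In the Cd24a probe set 1437502_x_at the mean log2 level was 9.60 in SEZ_GFP, 9.22 in SEZ_GFPprom and 8.70 in SEZ_CD24. Whether sort labels were exchanged was not tested.

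Among 55 motile cilium components, 5 (9.09%) were higher in SEZ_Prom and 0 in SEZ_CD24, against 3.43% and 2.10% of all genes, with a median of 0.49. Iqcg, a subunit of the dynein regulatory complex, read 35 and 64 against 7 and 12 (5.16-fold, or 4.32-fold with values under 10 set to 10, adjusted p = 0.00461). Dnal1, a dynein light chain, read 1282 and 1195 against 344 and 374 (3.45-fold, adjusted p = 0.011), but 1 of its 3 probe sets had this sign, and over their mean the difference was 0.51 (adjusted p = 0.281). Drc1, Cfap161 and Dnaic1 were 2.95, 2.83 and 2.93-fold higher at intensities of at most 142. Rfx4, a transcription factor of the ciliogenic RFX family, was 3.20-fold higher (166 and 107 against 28 and 62, adjusted p = 0.034), the single call among 14 regulators of multiciliated cells, and passed without SEZ_CD24 replicate 2 but not without any other of the 4 arrays. The 39 genes of intraflagellar transport and the basal body gave 0 calls and a median of -0.01. Of the 55 components, 3 passed with equal medians, quantile scaling, a floor of 10 or the mean of probe sets, 4 without SEZ_CD24 replicate 1 and 1 without each of the other 3 arrays or with the covariate.

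Choroid plexus genes were present in both sorts. Ttr, the transthyretin that choroid plexus epithelium secretes in large amounts, read 11943 and 12223 in SEZ_Prom and 14001 and 8698 in SEZ_CD24, and 117 to 9146 on the other 10 arrays. Kl, which encodes the choroid-enriched klotho, read 96 and 72 against 74 and 39, and 5 to 8 elsewhere. Kcnj13, a potassium channel, read 575 and 808 against 561 and 309, and 14 to 111 elsewhere. Kcne2, a channel subunit, read 32 and 37 against 38 and 37, and 6 to 10 elsewhere. None of these 4 genes passed between the sorts. Slc4a5, a bicarbonate transporter, did (25 and 29 against 12 and 8, 2.46-fold with values under 10 set to 10, adjusted p = 0.00494), with the other 10 arrays at 6 or 7. It was the 1 call among 12 choroid plexus markers (8.33%, against 3.43% of all genes higher in SEZ_Prom). The list's mean log2 level was 7.17 and 7.54 in SEZ_Prom, 6.98 and 6.36 in SEZ_CD24 and 3.97 to 5.70 on the other arrays.

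**Figure D3:**
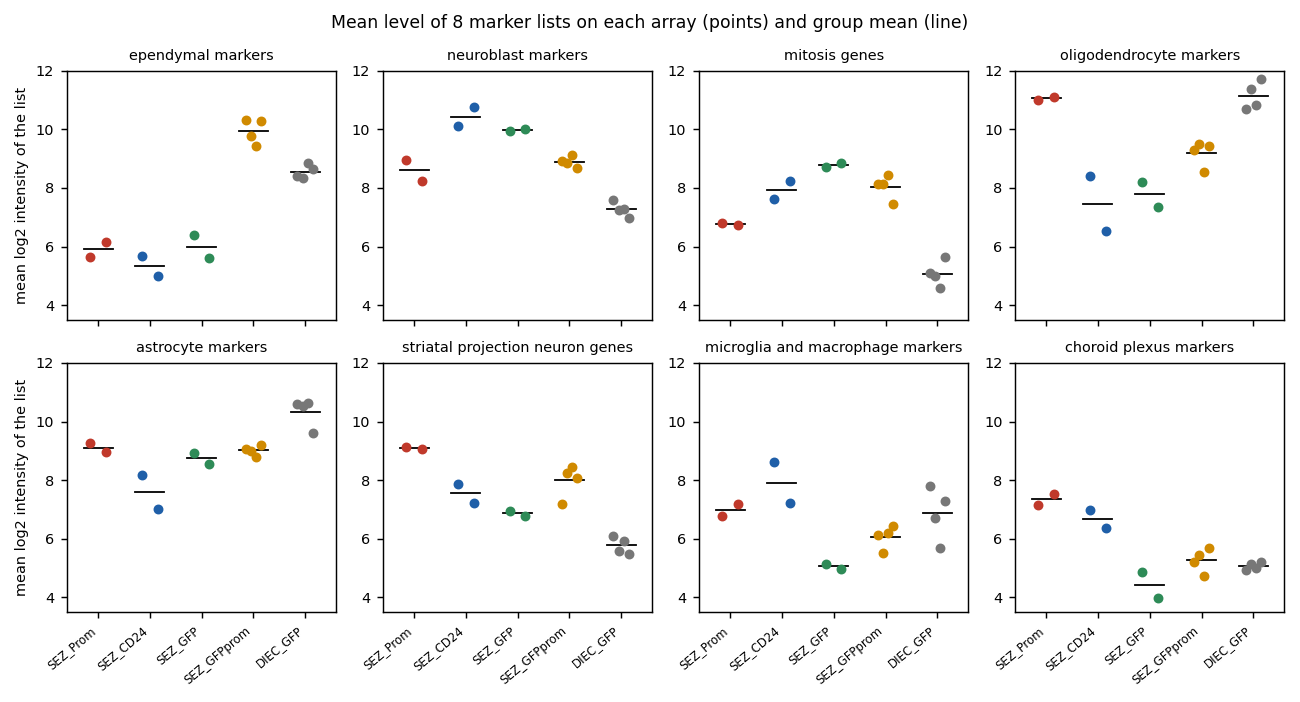
Mean log2 intensity of the members of 8 lists on each of the 14 arrays (points) with the mean of each group (line). Ependymal markers are near 5 to 6 in both sorts and near 10 in SEZ_GFPprom, neuroblast markers are highest in SEZ_CD24, and choroid plexus markers are higher in both sorts than in the other 3 groups.

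Neuroblast genes were the main neural group higher in the CD24 sort. Of 28 markers, 17 were higher in SEZ_CD24 and 0 in SEZ_Prom, with a median of -2.13, against 2.10% and 0.07 over all genes. Cd24a is itself one of the 17 and was used for the sort. Dcx, the microtubule-associated doublecortin of migrating neuroblasts, read 591 and 197 in SEZ_Prom and 2872 and 5645 in SEZ_CD24 (11.8-fold, difference -3.56 ± 0.56, adjusted p = 0.00709). The adjusted p was 0.0571 without SEZ_CD24 replicate 2 and 0.0564 without SEZ_Prom replicate 2. SEZ_GFP lay between 3340 and 3463 and DIEC_GFP between 43 and 102, so the CD24 sort was near SEZ_GFP in this gene. Igfbpl1, an IGF-binding protein-like gene of newborn neurons, read 100 and 77 against 522 and 822 (7.46-fold, adjusted p = 0.00148), and passed without each array in turn.

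Cytoskeletal, adhesion and cell cycle genes were also among the 17. Tubb3, the neuronal beta-tubulin, read 214 and 93 against 423 and 1669 (5.96-fold, adjusted p = 0.0232). Nrxn3, a presynaptic neurexin, read 709 and 325 against 2682 and 3516 (6.40-fold, adjusted p = 0.0114). Ccnd2, the D-type cyclin of neural progenitors, read 3400 and 3278 against 7927 and 11345 (2.84-fold, adjusted p = 0.0257), and 5 of its 7 probe sets passed in that direction. Ncam1, the adhesion molecule that carries polysialic acid on neuroblasts, read 1204 and 725 against 4299 and 7345 in its brightest probe set (6.01-fold, adjusted p = 0.00256). Its 7 probe sets disagreed: 2 passed in this direction and 2 in the other, and their mean differed by 0.00051. Of the 28 markers, 10 passed without SEZ_Prom replicate 1, 2 without SEZ_Prom replicate 2, 16 without SEZ_CD24 replicate 1, 2 without SEZ_CD24 replicate 2 and 2 with the covariate.

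Transcription factors of neurogenesis were higher in SEZ_CD24 in 8 of 22 cases and in SEZ_Prom in 0, with a median of -1.08. The 8 are 36.4% of the list, against 2.10% of all genes. Sox11, a factor of immature neurons, read 1253 and 741 against 3843 and 4321 (4.23-fold, adjusted p = 0.0122). Dlx2, which specifies GABAergic interneurons, read 253 and 70 against 628 and 1288 (6.76-fold, adjusted p = 0.0174). Sp8, a zinc finger factor of olfactory bulb interneurons, read 80 and 12 against 259 and 768 (14.4-fold, adjusted p = 0.0248). Dlx5 and Pbx3 were 4.94-fold and 3.18-fold higher in SEZ_CD24. Among the 4 arrays, SEZ_Prom replicate 2 was the lowest for each of these 5 genes. Elavl2, a neuronal RNA-binding protein, repeated this spread at 307 and 12 against 959 and 1241 (difference -4.17, adjusted p = 0.0474). Of the 22 factors, 3 passed without SEZ_Prom replicate 1, 7 without SEZ_CD24 replicate 1, and 0 without either other array or with the covariate.

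Of 35 stem cell and radial glia genes, 1 was higher in SEZ_Prom and 3 in SEZ_CD24, with 26 differences above 0. The share called was 11.4%, against 5.53% of all genes. Id3, an inhibitor of bHLH factors induced by BMP signals, read 170 and 160 against 50 and 27 (4.49-fold higher in SEZ_Prom, adjusted p = 0.00844). Sox1, a SOXB1 factor of neural progenitors, read 115 and 64 against 384 and 450 (4.85-fold higher in SEZ_CD24, adjusted p = 0.00922). Of its 2 probe sets 1 had this sign, and Sox1 also passed over their mean. Vim, the intermediate filament vimentin, read 315 and 210 against 470 and 1389 (3.14-fold, adjusted p = 0.0485), a call made in 7 of 29 alternative settings. Nfix, a factor of stem cell quiescence, was 2.47-fold higher in SEZ_CD24 (adjusted p = 0.028), but its difference was -0.05 when probe sets of shared sequence were left out. Without SEZ_Prom replicate 2 or SEZ_CD24 replicate 2, 0 of the 35 passed in either direction, and 1 passed without SEZ_Prom replicate 1. Without SEZ_CD24 replicate 1, 5 were higher in SEZ_Prom and 3 in SEZ_CD24. The list's mean log2 level was 7.77 and 7.89 in SEZ_Prom, 7.56 and 7.20 in SEZ_CD24 and 8.33 to 8.49 in SEZ_GFP.

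Genes of dividing cells were mostly brighter in the CD24 sort than in the prominin sort. Of 54 mitosis genes 51 had differences below 0 (median -1.19), 4 were higher in SEZ_CD24 and 1 in SEZ_Prom. The share called was 9.26%, against 5.53% of all genes. The list's mean log2 level was 6.78 in SEZ_Prom, 7.93 in SEZ_CD24, 8.04 in SEZ_GFPprom and 8.77 in SEZ_GFP. SEZ_Prom was thus the lowest of the SEZ sorts. Ube2c, which drives ubiquitin chain initiation at the anaphase-promoting complex, read 134 and 148 against 504 and 465 (3.44-fold, adjusted p = 0.0263). Ncaph, a condensin subunit, read 112 and 114 against 338 and 315 (2.89-fold, adjusted p = 0.0356). Prc1, which bundles microtubules of the spindle midzone, was 3.06-fold higher in SEZ_CD24. Mki67, the marker of cycling cells, read 251 and 464 against 1606 and 1796 without passing (adjusted p = 0.0938). Anln, an actin-binding protein of cytokinesis that is also abundant in myelinating oligodendrocytes, was the exception at 841 and 919 against 248 and 152 (4.53-fold higher in SEZ_Prom, adjusted p = 0.0167).

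DNA replication genes had 35 of 40 differences below 0 (median -0.93) and 3 calls, all higher in SEZ_CD24 (7.5%, against 2.10% of all genes). The list's mean log2 level was 7.015 in SEZ_Prom, 7.849 in SEZ_CD24, 7.878 in SEZ_GFPprom and 8.552 in SEZ_GFP. Rrm1, a subunit of ribonucleotide reductase, read 191 and 190 against 537 and 749 (3.33-fold, adjusted p = 0.0169). Mcm7 and Mcm6, subunits of the replicative helicase, were 3.44-fold and 2.26-fold higher, the Mcm6 call being made in 6 of 29 alternative settings. Cdkn1b, the cell cycle inhibitor p27, read 32 and 41 against 130 and 142 and was also higher in SEZ_CD24 (3.75-fold, adjusted p = 0.0232). Of the 40 replication genes, 0 passed with the mean of probe sets, 1 when probe sets that share sequence were dropped, 1 without SEZ_Prom replicate 1, 1 without SEZ_CD24 replicate 1, and 0 without either other array. Of the 54 mitosis genes, 2 passed as higher in SEZ_CD24 without SEZ_Prom replicate 2, 2 without SEZ_CD24 replicate 1 and 0 without either other array. With the covariate 0 of both lists passed.

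**Figure D4:**
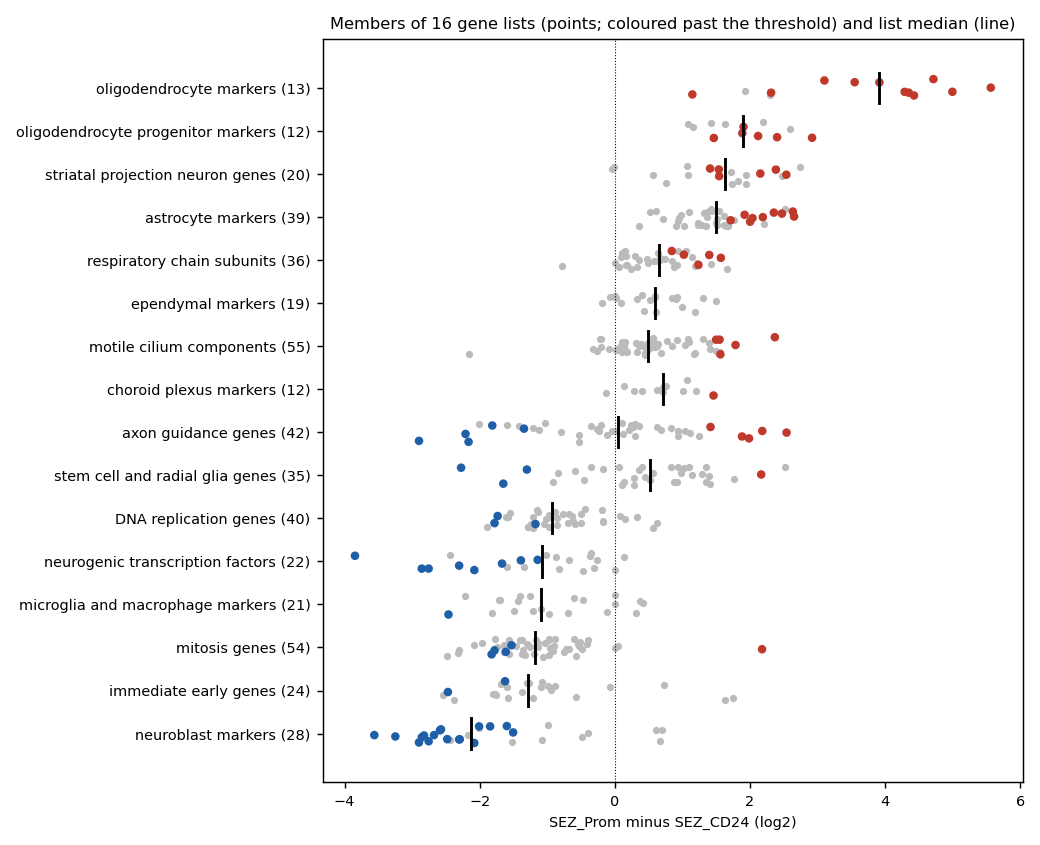
Difference SEZ_Prom minus SEZ_CD24 (log2, horizontal) of each measured member of 16 gene lists (points, coloured where past the threshold) with the list median (line); the number of measured members follows each name. Oligodendrocyte markers lie farthest right (median 3.92) and neuroblast markers farthest left (median -2.13), while axon guidance genes have calls on both sides.

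Guidance genes had calls on both sides. Of 42 axon guidance genes, 5 were higher in each sort (23.8% called, against 5.53% of all genes). Of 7 listed plexins, receptors for semaphorins, 3 were higher in SEZ_CD24: Plxna3 read 125 and 101 against 442 and 612 (4.63-fold, adjusted p = 0.00217), Plxna2 115 and 138 against 871 and 1014 (7.46-fold, adjusted p = 0.00513) and Plxnb2 188 and 268 against 917 and 1106 (4.49-fold, adjusted p = 0.00968). Outside the list, the plexins Plxnb3 and Plxnd1, named after their values were seen, were higher in SEZ_Prom (differences 2.87 and 1.68, adjusted p = 0.0371 and 0.0277). Efnb2, a membrane ligand of Eph receptors, read 236 and 217 against 661 and 959 (3.52-fold, adjusted p = 0.0116). On the other side were the semaphorins Sema6a (3.96-fold higher in SEZ_Prom) and Sema6d (2.67-fold), the Eph receptors Epha5 (4.54-fold) and Ephb1 (3.69-fold), and the netrin receptor Unc5b (569 and 818 against 132 and 104, 5.82-fold, adjusted p = 0.028). Sema6a, Sema6d and Epha5 did not pass over the mean of their probe sets, while Ephb1 and Unc5b did. Calls higher in SEZ_CD24 numbered 2, 3, 7 and 2 and calls higher in SEZ_Prom 0, 0, 3 and 0 without SEZ_Prom replicate 1, SEZ_Prom replicate 2, SEZ_CD24 replicate 1 and SEZ_CD24 replicate 2. Plxna2 and Plxna3 were among those that passed without each array in turn.

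Of 37 neural adhesion and cytoskeleton genes, 9 were higher in SEZ_CD24 and 4 in SEZ_Prom (35.1% called, against 5.53% of all genes). The 9 include Ncam1, Nrxn3, Dcx and Tubb3, given above. Alcam, an adhesion molecule of the immunoglobulin family, read 505 and 612 in SEZ_Prom and 34 and 40 in SEZ_CD24 (15.1-fold, difference 3.91 ± 0.32, adjusted p = 0.000507). It stayed past the threshold without each array, with a highest adjusted p of 0.00985, and with the covariate (adjusted p = 0.0111). The other 10 arrays lay between 276 and 717, so the SEZ_CD24 arrays were the low ones. Cntn2, a contactin of the juxtaparanode, read 294 and 515 against 35 and 44 (9.92-fold, adjusted p = 0.0189). Nfasc, the neurofascin of nodes and paranodes, read 241 and 398 against 53 and 46 (6.27-fold, adjusted p = 0.0127). Gjc3, a connexin of oligodendrocytes, was 6.66-fold higher in SEZ_Prom (adjusted p = 0.0203). Without SEZ_Prom replicate 2 or SEZ_CD24 replicate 2, 1 of the 37 passed in each direction, and without SEZ_Prom replicate 1 there were 6 calls toward SEZ_CD24 and 2 toward SEZ_Prom.

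Matrix genes gave 1 call in each direction out of 35, and 5 toward SEZ_Prom without SEZ_CD24 replicate 1. Vcan, the chondroitin sulphate proteoglycan versican, read 29 and 29 against 386 and 493 (higher in SEZ_CD24, difference -3.91, adjusted p = 0.00149), although 1 of its 8 probe sets passed. Lamb1, a laminin chain, read 127 and 125 against 25 and 25 (5.04-fold higher in SEZ_Prom, adjusted p = 0.00494). Its difference was 0.006 when probe sets of shared sequence were left out. The share of matrix genes called was 5.71%, near the 5.53% of all genes. Ptgds, the prostaglandin D synthase of leptomeninges and oligodendrocytes, read 4120 and 5778 against 873 and 138 (14.1-fold higher in SEZ_Prom, adjusted p = 0.0209). It was the 1 call among 14 fibroblast and leptomeningeal markers (7.14%, against 3.43% of all genes higher in SEZ_Prom). That list had 0 calls without SEZ_Prom replicate 1, SEZ_Prom replicate 2 or SEZ_CD24 replicate 2.

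Signalling pathways of the niche gave few calls. Among 27 BMP and Id genes, Id3 and the ligand Bmp2 were higher in SEZ_Prom. Bmp2 read 25 and 56 against 8 and 9 (adjusted p = 0.0388). With values under 10 set to 10 it was 3.74-fold higher and did not pass. The receptor Acvr2b (178 and 217 against 557 and 507, 2.70-fold, adjusted p = 0.00922) and the shared transducer Smad4 (900 and 1181 against 1990 and 2432, 2.13-fold, adjusted p = 0.0272) were higher in SEZ_CD24. Of 14 Hedgehog genes, Hhip was higher in SEZ_Prom and the co-receptor Cdon in SEZ_CD24 (123 and 114 against 323 and 556, 3.58-fold, adjusted p = 0.0356). Of 28 Notch genes, the effector Hey1 (228 and 130 against 45 and 70, 3.07-fold, adjusted p = 0.0356) and the non-canonical ligand Dlk2 (2.59-fold, adjusted p = 0.0496) were higher in SEZ_Prom. Of 39 Wnt genes, the ligand Wnt5a passed (18 and 13 against 41 and 137, 4.90-fold higher in SEZ_CD24, adjusted p = 0.0441). Of 28 EGF and FGF genes, Erbb3 was higher in SEZ_Prom and the MAP kinase phosphatase Dusp4 in SEZ_CD24 (59 and 15 against 424 and 527, 15.9-fold, adjusted p = 0.0234). The share of members called in these 5 lists ran from 2.56% to 14.8%, against 5.53% of all genes. Apart from the BMP and Id genes, where 1 passed each time, 0 members passed without SEZ_Prom replicate 2 or SEZ_CD24 replicate 2. Without SEZ_Prom replicate 1, 1 of the BMP and Id genes and 1 of the EGF and FGF genes passed.

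A haem gene gave the largest difference of the comparison, toward SEZ_CD24. Alas2, the first enzyme of haem synthesis in red cell precursors, read 34 and 42 in SEZ_Prom and 8741 and 3442 in SEZ_CD24, with the other 10 arrays at 22 to 82. It was 145-fold higher in SEZ_CD24 (difference -7.18 ± 0.57, adjusted p = 0.000507). It passed without each array (highest adjusted p = 0.00837) and with the covariate (adjusted p = 0.00314). Slc25a37, the mitoferrin that imports iron into mitochondria, read 20 and 18 against 562 and 240 (19.4-fold, adjusted p = 0.000622). Fech, which inserts the iron to complete haem, read 390 and 433 against 8144 and 3683 (13.3-fold, adjusted p = 0.00239), but its difference was 0.34 when probe sets of shared sequence were left out. Slc4a1, the anion exchanger band 3 of the red cell membrane, read 12 and 10 against 269 and 58 (11.4-fold, adjusted p = 0.016). Its adjusted p was 0.0527 without SEZ_CD24 replicate 1, 0.0742 without SEZ_Prom replicate 1 and 0.0955 without SEZ_Prom replicate 2.

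Haemoglobin itself was read from probe sets that the platform assigns to several globin genes and that were outside the test. The probe set 1417714_x_at, assigned to a pair of alpha-globin genes, read 409 and 731 in SEZ_Prom and 18925 and 18672 in SEZ_CD24. It read 345 to 7207 on the other 10 arrays, and 18925 is the highest value of the whole table. The beta-globin probe set 1417184_s_at read 635 and 465 against 14560 and 12492, and 191 to 3876 on the other 10 arrays. Hba-a1 also has a probe set of its own, which read 9 to 12 on the 4 arrays. Of the 5 red cell markers with a single symbol, 2 passed, Alas2 and Slc4a1; Bpgm, which makes the haemoglobin ligand 2,3-bisphosphoglycerate, read 2386 and 2246 against 5427 and 3403 (adjusted p = 0.0783). Whether red cell RNA in the SEZ_CD24 sort contributes to the other differences was not tested.

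Other genes stood beside them at the low end. Rsad2, the antiviral protein viperin, read 65 and 87 against 8951 and 2667 (65.0-fold higher in SEZ_CD24, adjusted p = 0.000826). Tent5c, a poly(A) polymerase, read 172 and 186 against 9236 and 4766 (37.1-fold, adjusted p = 0.00817). Isg20, an interferon-inducible exonuclease, read 44 and 30 against 2913 and 390 (29.3-fold, adjusted p = 0.0103, and 0.0751 without SEZ_Prom replicate 2). The interferon and antigen presentation list held 24 measured members, 1 higher in each sort, with a median of -0.09. The share called was 8.33%, against 5.53% of all genes. The calls were Stat2, at 13 and 13 against 32 and 34, and Ifit3, at 116 and 91 against 39 and 36. Neither of these calls was made without any 1 of the 4 arrays. S100a9, a granulocyte protein of the calprotectin pair, read 8 and 9 against 372 and 33 (11.1-fold with values under 10 set to 10, adjusted p = 0.0214). Its partner S100a8 read 8 and 8 against 277 and 24 (adjusted p = 0.0282, but 8.15-fold with an adjusted p of 0.0675 when values under 10 were set to 10), and Ngp, a granule protein of neutrophil precursors, 20 and 16 against 316 and 59 (7.63-fold, adjusted p = 0.018). In these 3 genes SEZ_CD24 replicate 1 was the brighter array by far. Without SEZ_Prom replicate 1 or replicate 2 the adjusted p of S100a9 was 0.104 and 0.102.

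**Figure D5:**
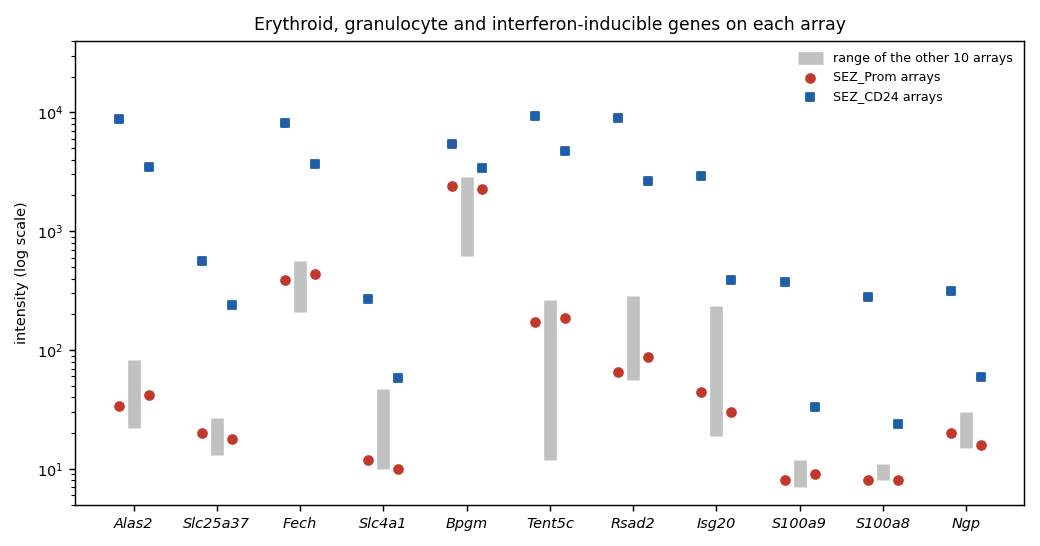
Intensity (log scale) of 11 erythroid, granulocyte and interferon-inducible genes on the 2 SEZ_Prom arrays (circles), the 2 SEZ_CD24 arrays (squares) and over the other 10 arrays (bar from lowest to highest). Both SEZ_CD24 arrays lie above every other array for each gene, with SEZ_CD24 replicate 1 (left square) above replicate 2.

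Most microglial and early response genes had differences below 0. Of 21 microglia and macrophage markers 1 passed, Cx3cr1, the fractalkine receptor (312 and 261 against 2139 and 1170, 5.54-fold, adjusted p = 0.038), and 16 had differences below 0 with a median of -1.09. Of the 2 Cx3cr1 probe sets, 1 was lower in SEZ_Prom, and over their mean the gene did not pass. Cx3cr1 did not pass without any 1 of the 4 arrays (adjusted p of 0.0935 to 0.177). Csf1r, the receptor on which microglia depend, read 2283 and 3648 against 9290 and 6304 (adjusted p = 0.221). The list's mean log2 level was 6.78 and 7.20 in SEZ_Prom, 8.63 and 7.21 in SEZ_CD24 and 4.98 to 5.15 in SEZ_GFP, so SEZ_CD24 replicate 2 lay at the level of SEZ_Prom replicate 2. The call was 4.76% of the list, against 5.53% of all genes. Of 24 immediate early genes, which are induced within minutes of a stimulus, 21 had differences below 0 (median -1.28). Of the 24, 2 passed as higher in SEZ_CD24 (8.33%, against 2.10% of all genes). Jun, an AP-1 subunit, read 671 and 610 against 4529 and 2780 (5.55-fold, adjusted p = 0.0356), and Ier5 213 and 272 against 1107 and 498 (3.08-fold, adjusted p = 0.0361). Calls toward SEZ_CD24 numbered 1 without SEZ_CD24 replicate 2 and 0 without any other of the 4 arrays, and without SEZ_CD24 replicate 1 there was 1 call toward SEZ_Prom.

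Calls among genes of energy metabolism were all toward SEZ_Prom, a direction in which 3.43% of all genes were called. Of 36 respiratory chain subunits 5 (13.9%) were higher in SEZ_Prom, Ndufa4 and 4 subunits of complex I, with a median of 0.65. Ndufa9 read 1511 and 1240 against 624 and 728 (2.03-fold, adjusted p = 0.0271) and Ndufa4 552 and 270 against 141 and 120 (2.97-fold, adjusted p = 0.028). With equal medians 1 of the 36 passed, and 0, 1, 5 and 0 passed without SEZ_Prom replicate 1, SEZ_Prom replicate 2, SEZ_CD24 replicate 1 and SEZ_CD24 replicate 2. Of 15 glycolysis genes 2 (13.3%) passed: Aldoa (1864 and 2156 against 701 and 377, 3.90-fold, adjusted p = 0.00713) and Tpi1 (1321 and 1367 against 645 and 339, 2.87-fold, adjusted p = 0.028) were higher in SEZ_Prom. Hadh, an enzyme of fatty acid oxidation, was 2.36-fold higher (adjusted p = 0.0173), the 1 call of 20. Cytosolic ribosomal proteins gave 1 call of 28 (3.57%), Rpl37 (309 and 194 against 41 and 33, 6.66-fold, adjusted p = 0.0142). Without SEZ_Prom replicate 2 these 3 lists had 0 calls, and without SEZ_Prom replicate 1 or SEZ_CD24 replicate 2 they had 1, in glycolysis. Cholesterol synthesis genes gave 0 of 19, and endothelial markers 0 of 21 with a median of -0.11. Across all 39 lists, 16 had calls only toward SEZ_Prom, 8 only toward SEZ_CD24, 10 in both directions and 5 none.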

How the data were processed

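RNA of sorted cells from 14 samples was measured on Affymetrix Mouse 430 arrays. Per the labels' protocols, RNA was purified on RNeasy columns with DNase, amplified in 2 rounds and biotin-labelled. The deposited intensity values were made by the authors with RMA, per the submitters' processing notes (version not given in the sources used here). They are linear whole numbers, and log2 was taken without a pseudocount.

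Of 45101 probe sets, 34945 had 1 gene symbol (932 several, 9160 none, 64 controls), which gave 18193 genes. One limma 3.58.1 model (R 4.3.3) was fitted to all 14 arrays with a mean per group (9 residual and 2.627 prior degrees of freedom), two-sided, without a replicate block. Its script was tested on simulated data.

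The 39 gene lists (1004 of 1092 entries measured) and the comparison itself were chosen with earlier results of these data known, so their counts are descriptions. Named were the sorting genes, the 15 highest and 15 lowest non-overlapping calls ranked with values under 10 set to 10, up to 4 members of each list by adjusted p, and others chosen after their values were seen. Alternatives covered scaling, dim genes, the probe set per gene, the arrays fitted, blocks, weights, the prior, the 3' to 5' ratio and each array left out.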

Additional observations from a re-analysis of the deposited data

Results flagged for a closer look

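In groups of 4 arrays, 1 array lay apart from the other 3 for 6 of the levels checked, and chance alone does this in about 1 of 20 groups. The number of groups checked is not given here, so the 6 cannot be set against that rate and are listed as description only. Ermn was lowest in 1 SEZ_GFPprom array, at a log2 level of 7.09. Slc4a5 had 1 high array in SEZ_GFPprom and 1 in DIEC_GFP, both at 2.81, where the others read 1 intensity unit less. Kl had 1 low SEZ_GFPprom array at 2.58, also at the dim end. The mean log2 level of the astrocyte markers was lowest in 1 DIEC_GFP array at 9.61. Mki67 was highest in 1 DIEC_GFP array at 7.24, against a group median intensity of 26. These arrays belong to the groups that served for context, and enter the comparison only through the shared estimate of the spread.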

How the results depend on the processing

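The 1006 calls (624 higher in SEZ_Prom, 382 in SEZ_CD24) stayed within 1.5 times under quantile, equal-median and cyclic loess scaling, both filters on dim genes, a floor of 10, both other probe set rules, the fit of the SEZ groups, array weights and a trended robust prior. They were 136 (79 and 57) with the 3' to 5' ratio as a covariate and 0 (0 and 0) in a limma fit of these 4 arrays alone, which has fewer samples. Leaving out single arrays gave 161 to 1197 calls (93 to 767 higher in SEZ_Prom and 68 to 436 in SEZ_CD24). The labels do not say whether same-numbered arrays are paired, and 2 arrays in each sort cannot decide it. Across genes, same-numbered arrays' deviations correlated at -0.11, and a replicate block gave 851 calls (538 and 313). With the pairing crossed, chosen after seeing the data, it gave 928 (575 and 353). Of 138 named genes 120 passed; 20 of these did so without each of the 4 arrays, and 20 with the covariate. Fech turned to 0.34 when probe sets of shared sequence were left out, and Ncam1 to 0.00051 over the mean of its probe sets. Probe sets of shared sequence here are all those with names ending in _s_at, _x_at or _a_at. Among genes that did not pass, Prom1 ran from -0.55 to 1.61 over the arrays left out, Foxj1 from -0.14 to 0.32 and Ttr from -0.21 to 0.47. Foxj1 was -0.10 with quantile scaling, -0.076 with equal medians and -0.38 with the covariate. Ttr was -0.035 with equal medians and -2.90 with the covariate, and Kcnj13 -0.70 with the covariate. The causes were not tested. Intensities near 10 or below carry no order.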
